A study of Mus musculus with 4 samples.

Results

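Interleukin-1 (IL-1) family genes were examined in lung tumours of Nrf2 -/- and Nrf2 +/+ Balb/c mice. The 10 genes were taken by name from the deposited table of 35275 gene identifiers and comprise 4 ligands (Il1a, Il1b, Il18, Il33), 3 inhibitors (Il1rn, Il1r2, Il18bp) and 3 receptor chains (Il1r1, Il1rap, Il1rl1). RNA was sequenced from 2 knockout and 2 wild-type samples, and each sample was a pool of 3 to 4 tumours. All animals, wild types included, had received the carcinogen vinyl carbamate, at 16 mg/kg in 2 or 4 doses, and tumours were taken 40 to 44 weeks after the start. Nrf2 is the product of Nfe2l2 and switches on genes of antioxidant defence. Doses, weeks and tumour numbers are not tied to single samples in the labels.

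The IL-1 family is a set of cytokines that raise alarm in tissues. IL-1 alpha and IL-1 beta both bind the receptor IL1R1, which pairs with the accessory chain IL1RAP and signals through MyD88 and NF-kB. IL-1 beta and IL-18 are made as inactive precursors that caspase-1 cuts inside inflammasomes, whereas IL-33 is stored in the nuclei of barrier cells and acts through ST2, the product of Il1rl1, on mast cells, group 2 innate lymphoid cells and T helper cells. The family carries its own brakes. Il1rn encodes a receptor antagonist, Il1r2 a decoy receptor and Il18bp a protein that captures IL-18. In the lung, alveolar and stromal cells hold IL-33, and myeloid cells are the main makers of IL-1 beta.

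Values are FPKM, which scale reads to gene length and library size, and so can be set against each other between genes. The scaling implies library totals of 17.98 and 16.89 M for knockout 1 and 2 and of 21.66 and 21.22 M for wild type 1 and 2 (M, 1000000 reads). Nfe2l2 was at 3.66 and 2.96 FPKM in knockout samples, against 96.3 and 87.9 FPKM in wild-type samples, and its log2 fold change was -4.44 ± 0.13 (SE; limma adjusted p = 0.000378). Alveolar type 2 cell markers summed to 117863 and 102236 FPKM in knockout libraries and to 105940 and 106538 FPKM in wild-type libraries, and 0 of the 8 markers were at 0 throughout. Most of that sum was Sftpc. Of the 8 markers 4 lay lower and 1 higher in both knockout libraries, where 25.4% and 22.7% of all tested genes did. Limma called 0 of the 8. Samples were pools of tissue, so that fewer cells of a type and less RNA per cell cannot be told apart. The series' design text speaks of 2 mice of each genotype, and p-values measure the spread between these 4 samples.

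Il1b and Il1a, which encode IL-1 beta and IL-1 alpha, are neighbours on chromosome 2 (mm10, minus strand) and lie 54.6 kb apart. Their promoters are shown because Il1b was called as higher in knockout tumours and Il1a was not. The windows run from 250 bases before to 50 after the start site, 5′ to 3′ on the gene's strand (RefSeq, GRCm38.p6, the assembly of mm10). Capitals mark a TATAAA box in both, and in Il1a also the PU.1 letters GAGGAAG and the AP-1 letters TGANTCA.
Il1b, chr2:129371090-129371389: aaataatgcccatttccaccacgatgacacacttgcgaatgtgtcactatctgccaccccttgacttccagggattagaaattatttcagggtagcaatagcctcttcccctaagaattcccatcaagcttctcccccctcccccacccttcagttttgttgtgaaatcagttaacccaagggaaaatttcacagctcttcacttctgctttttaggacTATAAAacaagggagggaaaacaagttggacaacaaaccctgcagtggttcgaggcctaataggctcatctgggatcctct
Il1a, chr2:129309923-129310222: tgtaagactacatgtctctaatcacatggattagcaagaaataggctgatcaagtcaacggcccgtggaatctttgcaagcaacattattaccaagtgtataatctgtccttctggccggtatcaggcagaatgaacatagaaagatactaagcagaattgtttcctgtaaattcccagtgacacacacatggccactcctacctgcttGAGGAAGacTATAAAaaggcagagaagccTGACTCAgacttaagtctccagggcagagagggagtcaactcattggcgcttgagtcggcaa
The TATAAA box began at base -31 of Il1b and at base -32 of Il1a, counted back from the start site. Both strands were searched for 7 motifs in the 15 start-site windows that RefSeq lists for the 10 genes, all of which matched by symbol. TATAAA occurred in 6 of the 15 windows and in 13.6% of all 32851 mouse promoter windows of that length. A form of the NF-kB motif, GGGA, any base, TT, any base and CC, was found in 0 of the 15 and in 1.2% of all windows. The AP-1 letters were in 2 of the 15 and in 7.81% of all, and the PU.1 letters in 2 of the 15 and in 13.6% of all.

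Il1b rose in knockout tumours. It was at 21.4 and 19.2 FPKM in knockout 1 and 2, against 8.34 and 8.40 FPKM in wild type 1 and 2. Both knockout libraries lay far above both wild-type libraries, and the wild-type values were almost equal. Its log2 fold change on the log2(FPKM + 1) scale was 1.18 ± 0.11 (SE; limma adjusted p = 0.043 over 13147 tested genes). Il1b was the 1 member called at an adjusted p under 0.05 in the direction of higher values, where 0.0761% of all tested genes were called. The call was lost without wild type 1 (limma adjusted p = 0.106) or wild type 2 (limma adjusted p = 0.133), and adjusted p ranged from 0.0212 to 0.258 over 12 alternative settings, 5 of which called it. These values stand for at least 311 and 262 reads in knockout libraries and 146 and 144 in wild-type libraries.

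Several neutrophil markers rose in knockout tumours as well. Of the 12 markers 7 were tested. Among these 7, 6 were higher in both knockout libraries than in either wild-type library, as were 22.7% of all tested genes. By limma 3 of the 7 were called higher, where 0.0761% of all tested genes were. Mmp8, the tested marker whose groups overlapped, had a log2 fold change of -0.03 ± 0.22 (SE; limma adjusted p = 0.961). S100a8 and S100a9, the subunits of calprotectin, had log2 fold changes of 1.71 ± 0.10 and 2.04 ± 0.18, and Csf3r, a cytokine receptor of the granulocyte lineage, of 1.41 ± 0.12 (SE; limma adjusted p = 0.0108, 0.026 and 0.0255). The list summed to 102.7 and 124.3 FPKM in knockout and to 29.7 and 30.3 FPKM in wild-type libraries. Elane, an enzyme of immature neutrophils, was listed at 0 in all 4 libraries, and Ly6g, a defining surface marker, was listed at 0 in both knockout libraries and held 1 and 2 reads in wild-type libraries. T cell markers lay the same way, summing to 26.5 and 32.4 FPKM in knockout and to 11.8 and 11.2 FPKM in wild-type libraries, with 6 of 6 tested markers higher in both knockout libraries (22.7% of all tested genes) and 0 called by limma. Of 8 macrophage markers, 2, Lyz2 and Itgam, lay higher in both knockout libraries and 0 lower (22.7% and 25.4% of all tested genes). The median log2 fold change of the 8 was 0.05. Their sums were 17486 and 12275 FPKM in knockout and 10093 and 9532 FPKM in wild-type libraries. Most of each sum was Lyz2, at 17198 and 11979 FPKM in knockout and 9798 and 9247 FPKM in wild-type libraries. B cell markers summed to 28.6 and 21.6 FPKM in knockout and to 18.1 and 21.2 FPKM in wild-type libraries. Erythroid markers summed to 1194 and 1094 FPKM in knockout and to 247 and 490 FPKM in wild-type libraries. The part of any of these in the level of Il1b was not tested.

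Il1a was the least abundant ligand. It was at 1.80 and 1.65 FPKM in knockout samples, against 1.12 and 1.29 FPKM in wild-type samples. The groups did not overlap, but the log2 fold change of 0.31 ± 0.16 (SE) was not called (limma adjusted p = 0.415). Only 64 and 55 reads in knockout and 48 and 54 reads in wild-type libraries lie behind these values. The length at which these reads were whole is an annotated one for Il1a.

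**Figure D1:**
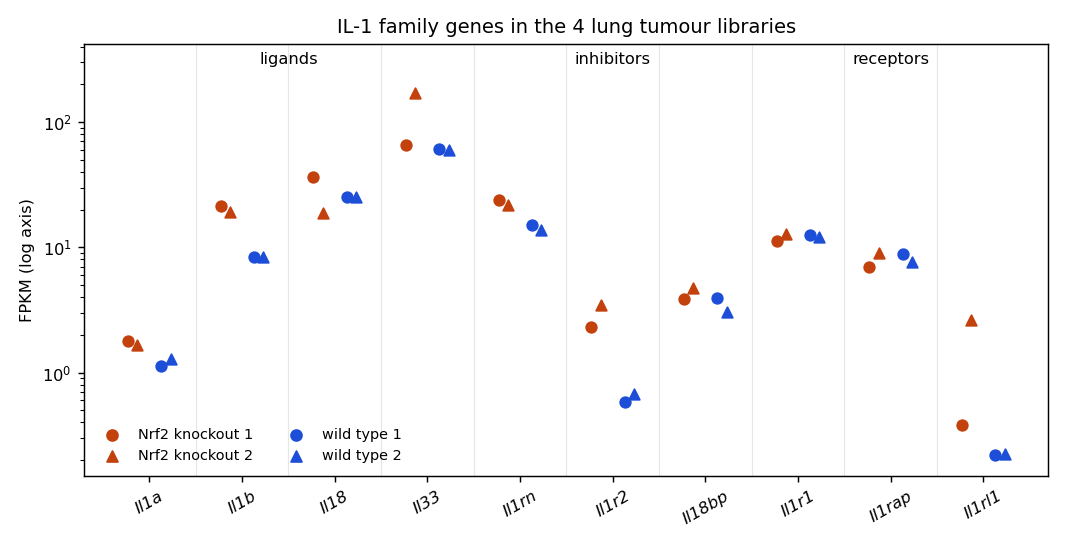
FPKM of the 10 IL-1 family genes on a log axis, with 1 point per library, knockout left of wild type for each gene. Il1b, Il1rn and Il1r2 lie higher in both knockout libraries, and Il33 and Il1rl1 stand out in knockout 2, at 171 and 2.61 FPKM.

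Both inhibitors of IL-1 had higher values in the 2 knockout libraries without passing the test. Il1rn, the receptor antagonist, was at 24.1 and 21.7 FPKM in knockout samples, against 15.03 and 13.74 FPKM in wild-type samples. The groups did not overlap, and the log2 fold change was 0.63 ± 0.12 (SE; unadjusted p = 0.00142, limma adjusted p = 0.124). Il1r2, the decoy receptor, was at 2.33 and 3.45 FPKM in knockout tumours and at 0.587 and 0.670 FPKM in wild-type samples. Its knockout mean was 4.60 times its wild-type mean in FPKM, and on the log2(FPKM + 1) scale its log2 fold change was 1.24 ± 0.19 (SE; unadjusted p = 0.000648, limma adjusted p = 0.107). The knockout libraries held at least 56 and 78 reads of Il1r2, and the wild-type libraries at least 17 and 19. Il1r2 passed the filter through the knockout libraries alone, so that it could enter the test only because it was high there. Without knockout 1 its log2 fold change was 1.45, in a fit that holds no spread between knockout libraries. Over the alternative settings it ran from 0.28 with a pseudocount of 10 to 2.14 with limma-voom on recovered reads.

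The receptors that carry the IL-1 signal did not differ detectably. Il1r1 was at 11.1 and 12.8 FPKM in knockout tumours and at 12.6 and 12.1 FPKM in wild-type samples, and the groups overlapped. Il1rap, the shared accessory chain, was at 7.02 and 8.94 FPKM in knockout tumours and at 8.88 and 7.70 FPKM in wild-type samples, again overlapping. Their log2 fold changes were -0.05 ± 0.12 and -0.05 ± 0.15 (SE), with limma adjusted p = 0.885 and 0.896, and both turned positive without knockout 1 (0.04 and 0.10). Il1rap was also positive without wild type 1 (0.04).

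Since FPKM is scaled to length, inhibitor and ligand levels can be divided within a library. The ratio of Il1rn to Il1b was 1.12 and 1.13 in knockout samples, against 1.80 and 1.64 in wild-type samples. It was thus lower in both knockout libraries, with a log2 difference of -0.61 and a within-group SD of 0.07. With Il1a added to the denominator the ratio was 1.04 and 1.04 in knockout and 1.59 and 1.42 in wild-type samples. The decoy Il1r2 stood in a ratio of 0.209 and 0.270 to the signalling receptor Il1r1 in knockout samples, against 0.0467 and 0.0551 in wild-type samples. That log2 difference was 2.23 with a within-group SD of 0.22, and it was 1.29 on the log2(FPKM + 1) scale. The groups overlapped for Il1r1, so this ratio mostly restates the level of Il1r2. Il1r2 passed the filter through the knockout libraries alone. With 2 libraries against 2, the exact two-sided permutation test cannot go below p = 0.333, which each of these 3 ratios reached, so they are descriptions.

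**Figure D2:**
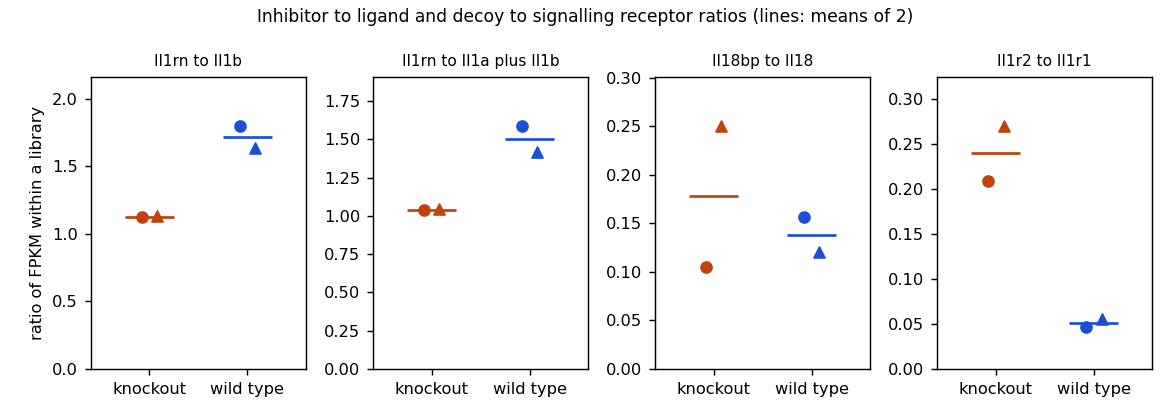
Ratios of FPKM within each library for 4 pairs, 1 point per library with the mean of 2 as a line, knockout left of wild type. The Il1rn to Il1b ratio is lower in both knockout libraries (mean 1.13 in knockout and 1.72 in wild type). The Il1r2 to Il1r1 ratio is higher in both (0.240 in knockout and 0.0509 in wild type), and Il1r2 passed the filter through knockout alone. The Il18bp to Il18 ratio overlaps.

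Il18 varied more between the knockout libraries than between the wild-type libraries. It was at 36.7 and 18.7 FPKM in knockout 1 and 2, against 25.3 and 25.2 FPKM in wild type 1 and 2. The 2 knockout values lay on opposite sides of the wild-type pair, with an SD of 12.7 FPKM in knockout and 0.0575 FPKM in wild type. The log2 fold change was 0.06 ± 0.28 (SE; limma adjusted p = 0.945), and it was -0.41 without knockout 1 and 0.52 without knockout 2. The libraries held 463 and 222 reads of Il18 in knockout and 384 and 375 reads in wild type. Il18bp, which neutralises IL-18, was at 3.85 and 4.69 FPKM in knockout tumours and at 3.96 and 3.03 FPKM in wild-type samples (0.23 ± 0.17, SE; limma adjusted p = 0.551). The Il18bp to Il18 ratio was 0.105 and 0.251 in knockout and 0.157 and 0.120 in wild-type samples, and its groups overlapped (exact two-sided permutation p = 1).

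Il33 was the most abundant member in all 4 libraries. It was at 66.1 and 171 FPKM in knockout 1 and 2, against 61.3 and 60.4 FPKM in wild type 1 and 2. Knockout 1 lay just above the wild-type pair, and knockout 2 was at 2.59 times the next highest library, as 0.814% of all tested genes were by a factor of at least 2. The log2 fold change of 0.80 ± 0.40 (SE) was not called (limma adjusted p = 0.406). Knockout 2 decided it, since the value was 0.12 without knockout 2 and 1.48 without knockout 1. These fits hold no spread between knockout libraries, so only their effect sizes are given.

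Il1rl1, which encodes the IL-33 receptor ST2, was also highest in knockout 2. Il1rl1 was at 0.381 and 2.61 FPKM in knockout 1 and 2, against 0.221 and 0.226 FPKM in wild type 1 and 2. The knockout libraries held at least 20 and 129 reads, and the wild-type libraries at least 14 each. Knockout 2 was at 6.86 times the next highest library. Il1rl1 did not pass the filter of 1 FPKM in 2 libraries and is the 1 member left out of the test. Without the filter its log2 fold change was 0.87 ± 0.48 (SE; limma adjusted p = 0.554).

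The start sites of this ligand and its receptor are shown because both genes stood apart in knockout 2. RefSeq gives each gene a pair of start sites, on the plus strand of chromosome 19 for Il33 and of chromosome 1 for Il1rl1. Capitals mark TATAAA, the C/EBP letters TTNNGCAA, the STAT6 letters TTC and GAA with 4 bases between them, the PU.1 letters and, in Il1rl1, the antioxidant response element TGACNNNGC, the motif that NRF2 binds with small MAF proteins.
Il33, upstream start, chr19:29924863-29925162: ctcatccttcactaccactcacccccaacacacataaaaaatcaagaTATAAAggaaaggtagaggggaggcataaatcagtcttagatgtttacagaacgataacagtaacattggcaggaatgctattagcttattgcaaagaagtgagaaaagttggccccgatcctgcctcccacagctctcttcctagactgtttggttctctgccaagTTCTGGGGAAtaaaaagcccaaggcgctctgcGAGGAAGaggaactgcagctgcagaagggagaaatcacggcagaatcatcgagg
Il33, downstream start, chr19:29945540-29945839: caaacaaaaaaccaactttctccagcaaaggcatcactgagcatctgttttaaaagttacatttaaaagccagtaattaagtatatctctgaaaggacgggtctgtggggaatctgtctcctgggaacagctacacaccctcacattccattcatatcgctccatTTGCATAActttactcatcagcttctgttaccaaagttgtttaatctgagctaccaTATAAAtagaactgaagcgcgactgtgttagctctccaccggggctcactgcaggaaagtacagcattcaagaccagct
Il1rl1, upstream start, chr1:40429320-40429619: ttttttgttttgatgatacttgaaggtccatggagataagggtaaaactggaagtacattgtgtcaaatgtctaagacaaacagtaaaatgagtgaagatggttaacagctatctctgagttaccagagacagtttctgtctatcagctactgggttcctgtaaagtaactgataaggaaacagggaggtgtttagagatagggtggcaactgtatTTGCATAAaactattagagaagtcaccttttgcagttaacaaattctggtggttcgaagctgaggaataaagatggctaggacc
Il1rl1, downstream start, chr1:40439379-40439678: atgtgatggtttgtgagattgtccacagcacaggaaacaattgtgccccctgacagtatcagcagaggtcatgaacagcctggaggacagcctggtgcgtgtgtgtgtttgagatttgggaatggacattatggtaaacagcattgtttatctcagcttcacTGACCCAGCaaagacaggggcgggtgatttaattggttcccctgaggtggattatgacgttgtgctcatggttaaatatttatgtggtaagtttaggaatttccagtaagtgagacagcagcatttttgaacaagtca
The Il33 windows held STAT6 letters at base -36 and TATAAA at base -203 of the upstream start, and TATAAA at base -29 of the downstream start. STAT6 letters were in 4 of the 15 windows, 2 of which overlap in Il1rn and share the match, and in 6.95% of all windows. The antioxidant response element TGACCCAGC lay at base -88 of the downstream Il1rl1 start, the 1 match among the 15 windows, against 12.4% of all windows. C/EBP letters were in 4 of the 15 and in 10.8% of all. The FPKM of a gene does not separate its start sites, and a match is a run of letters in this window only.

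Most listed genes of the type 2 response, which IL-33 is known to set off, were highest in knockout 2 as well. The list held 12 such genes, and 10 of them were highest in that library, as were 30.1% of all tested genes. For Il5 and Il9, among the 10, this rests on 1 read each. Il5, Il9, Il13 and Ccl24, all among the 10, did not pass the filter, while the 30.1% covers only genes that did. Il13, the type 2 cytokine, had 1 and 28 reads in knockout 1 and 2 and was listed at 0 in both wild-type libraries. Retnla, a secreted marker of alternatively activated macrophages and type 2 responses, was at 62.0 and 4276 FPKM in knockout 1 and 2, against 35.98 and 13.55 FPKM in wild type 1 and 2. Knockout 2 thus held 69.0 times as much Retnla as the next highest library. Ccl24, an eosinophil attractant, was at 0.0863 and 1.06 FPKM in knockout samples, against 0.143 and 0.0731 FPKM in wild-type samples.

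Not all type 2 genes stood apart in knockout 2 alone. Ccl17, a ligand of CCR4, was at 22.6 and 50.1 FPKM in knockout samples, against 7.65 and 4.68 FPKM in wild-type samples, and Ccl22, which binds the same receptor, at 12.8 and 21.5 FPKM in knockout and 4.71 and 3.09 FPKM in wild type. Neither was called (limma adjusted p = 0.113 and 0.0921). Areg, an epidermal growth factor receptor ligand, was at 16.6 and 8.54 FPKM in knockout and at 8.16 and 17.2 FPKM in wild-type libraries. Il4 was highest in wild type 1, at 2.44 FPKM. Ifng, Gzmb, Prf1 and Fasl, genes that IL-18 induces in lymphocytes, were all under the filter. Of the 8 tested genes in the whole list of 16, 0 were called by limma or limma-voom and 5 had an unadjusted p under 0.05, all higher. The background share for that direction was 8.36%. The median log2 fold change was 0.92, against -0.00 over all tested genes, and it was 0.60 without knockout 2.

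Markers were read for cells known to carry ST2 (group 2 lymphocytes, mast cells and basophils) and also for endothelial cells and fibroblasts. Group 2 lymphocyte markers summed to 3.07 and 7.61 FPKM in knockout 1 and 2, against 3.64 and 3.03 FPKM in wild type 1 and 2, with 1 of 2 tested markers, Gata3, higher in both knockout libraries and 0 of 6 at 0 throughout. Of these 6 markers 4 (Gata3, Il13, Il5 and Il4) are also among the 12 type 2 genes above. Mast cell markers other than Hdc summed to 8.59 and 10.8 FPKM in knockout and to 10.04 and 6.22 FPKM in wild-type libraries. Most of this sum was Kit, at 6.37 and 9.21 FPKM in knockout and 9.21 and 4.26 FPKM in wild-type libraries. Hdc alone was at 331 and 323 FPKM in knockout and 323 and 313 FPKM in wild-type libraries. Of the 9 markers 7 were under the filter. Among these 7, the tryptase Tpsb2 had 1 read in 1 wild-type library and none elsewhere. Another tryptase, Tpsab1, was at 0.469 and 0.422 FPKM in knockout and at 0.299 and 1.41 FPKM in wild-type libraries. Cpa3, a mast cell carboxypeptidase, was at 1.23 and 0.693 FPKM in knockout and at 0.318 and 0.422 FPKM in wild-type libraries. Mcpt4 and Cma1 also lay higher in both knockout libraries, and Fcer1a and Ms4a2 overlapped, all on few reads. Basophil markers summed to 0.366 and 0.444 FPKM in knockout and to 0.476 and 0.751 FPKM in wild-type libraries, with all 3 markers under the filter and Prss34 at 1 read in 1 wild-type library and none elsewhere. Endothelial markers summed to 108.5 and 175.7 FPKM in knockout and to 130.4 and 68.0 FPKM in wild-type libraries, and 2 of 6 were higher in both knockout libraries. Fibroblast markers were also highest in knockout 2, at 324.1 and 530.2 FPKM in knockout and 330.5 and 224.7 FPKM in wild-type libraries, with 3 of 5 tested markers higher in both knockout libraries. For each of these lists the count of such markers stands against 22.7% of all tested genes. The part of these cells in the levels of Il33 and Il1rl1 was not tested.

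**Figure D3:**
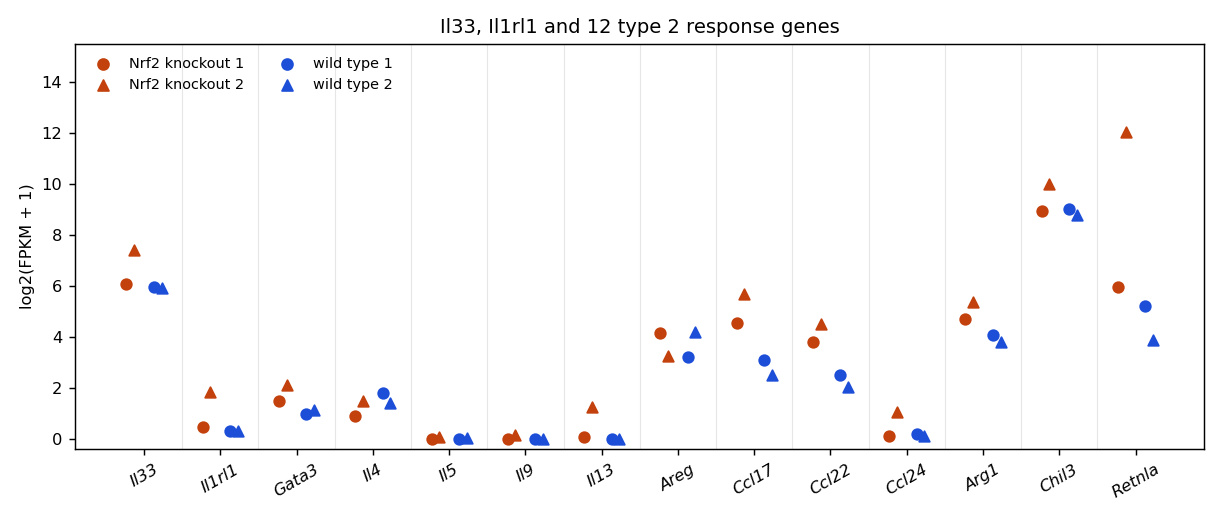
log2(FPKM + 1) of Il33, Il1rl1 and the 12 type 2 genes of the list, 1 point per library, knockout left of wild type. Knockout 2 (orange triangle) is highest for Il33, Il1rl1 and 10 of the 12, with Retnla furthest from the rest at 4276 FPKM.

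The receptor genes of the family form a cluster on chromosome 1. From Il1r2 (40074079 to 40125231) through Il1r1 (40225080 to 40317257), Il1rl2 (40324610 to 40367562), Il1rl1 (40429570 to 40465415) and Il18r1 (40465552 to 40500854) to Il18rap (40515362 to 40551705), it spans 477.6 kb on the plus strand (mm10, GENCODE M21). Within the cluster neighbours differed in their ratios. Il1r2 and Il1rl1 had knockout means of 4.60 and 6.70 times their wild-type means, while Il1r1 between them was at 0.968 times. The Il1rl1 ratio rests on knockout 2, at 2.61 FPKM against 0.381 FPKM in knockout 1, and Il1rl1 was not tested. Il18r1, which begins 0.1 kb after the end of Il1rl1 and encodes the IL-18 receptor chain that binds the cytokine, was at 41.4 and 46.9 FPKM in knockout tumours and at 45.9 and 48.7 FPKM in wild-type samples. Its partner Il18rap was at 26.7 and 19.2 FPKM in knockout tumours and at 22.2 and 24.8 FPKM in wild-type samples. Il1rl2, the IL-36 receptor, was at 8.05 and 6.34 FPKM in knockout tumours and at 6.82 and 6.84 FPKM in wild-type samples. In each of these 3 genes the groups overlapped.

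The rest of the family gave no call. Of 11 family genes outside the 10, 5 were listed at 0 in every library (Il1f5, Il1f6, Il1f10, Il1rapl1 and Il1rapl2). Il1f9, which encodes IL-36 gamma, was at 0.878 and 0.682 FPKM in knockout tumours and at 0.252 and 0.372 FPKM in wild-type samples. It stayed under the filter and rested on 26 and 19 reads in knockout and 9 and 13 reads in wild-type libraries. Sigirr, an inhibitory receptor of the family, was at 17.2 and 14.8 FPKM in knockout tumours and at 13.9 and 15.6 FPKM in wild-type samples. Of the 4 tested, 0 were called by limma or limma-voom, 0 had an unadjusted p under 0.05 and 0 had groups that did not overlap.

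Within a genotype, the order of levels differed at 2 places. In knockout tumours Il33 (mean 119 FPKM) was followed by Il18 (27.7), Il1rn (22.9), Il1b (20.3), Il1r1 (11.96), Il1rap (7.98), Il18bp (4.27), Il1r2 (2.89), Il1a (1.73) and Il1rl1 (1.498). In wild-type samples the order was Il33 (60.9 FPKM), Il18 (25.2), Il1rn (14.4), Il1r1 (12.4), Il1b (8.37), Il1rap (8.29), Il18bp (3.49), Il1a (1.21), Il1r2 (0.628) and Il1rl1 (0.224). Il1b thus stood above Il1r1 in knockout and below it in wild type, and Il1r2 stood above Il1a in knockout and below it in wild type. In knockout tumours the range of Il18 overlapped those of Il1rn and Il1b, and that of Il1rl1 overlapped those of Il1a and Il1r2. In wild-type samples the range of Il1rap overlapped that of Il1b.

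**Figure D4:**
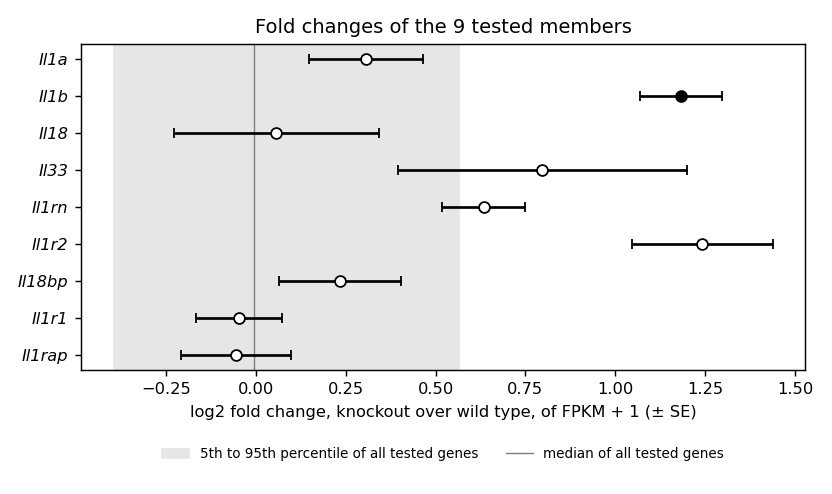
log2 fold change, knockout over wild type, of FPKM + 1 with its SE for the 9 tested members. The filled circle is the called gene, Il1b at 1.18, and the grey band is the 5th to 95th percentile of all tested genes (-0.39 to 0.56).

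Across the 10 genes, 6 had both knockout values above both wild-type values and 0 had both below, where 22.7% and 25.4% of all tested genes did. The 6 include Il1r2, which passed the filter through knockout alone, and Il1rl1, which did not pass. Of the 9 tested members, 3 had an unadjusted p under 0.05 in the higher direction (Il1b, Il1r2 and Il1rn) and 0 in the lower, against 8.36% and 7.01% of all tested genes. By limma 0 of the 9 were called lower, where 0.038% of all tested genes were, and limma-voom on recovered reads called 0 of the 9.

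Genes that IL-1 is known to induce were mostly higher in knockout tumours without passing the test. Of 30 genes listed, 21 were tested and 0 were called by limma or limma-voom. At an unadjusted p under 0.05, 13 were higher and 0 lower, where 8.36% and 7.01% of all tested genes were. In 15 of the 21 both knockout libraries lay above both wild-type libraries, and in 1, the adhesion molecule Icam1, below, where 22.7% and 25.4% of all tested genes did so. The median log2 fold change was 0.60, and it was 0.42 without knockout 2. Cxcl3, a neutrophil attractant, was at 8.33 and 18.01 FPKM in knockout samples, against 3.98 and 3.78 FPKM in wild-type samples (1.45 ± 0.32, SE; limma adjusted p = 0.16). Cxcl1, another neutrophil attractant, was at 25.2 and 26.3 FPKM in knockout samples, against 11.2 and 13.2 FPKM in wild-type samples. Saa3, an acute phase protein, was at 18.02 and 18.39 FPKM in knockout samples, against 8.87 and 7.72 FPKM in wild-type samples. Both had a limma adjusted p = 0.0696, with log2 fold changes of 1.02 ± 0.12 and 1.05 ± 0.12 (SE). Mmp9 belongs to this list and to the neutrophil markers.

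No gene that makes or processes mature IL-1 was called. Of 29 listed, 17 were tested, 0 were called by limma or limma-voom, and 3 had an unadjusted p under 0.05, all higher, where 8.36% of all tested genes did. Casp4, which encodes the inflammatory caspase-11 of mice, was at 9.39 and 9.36 FPKM in knockout samples, against 5.002 and 6.371 FPKM in wild-type samples. Aim2, a sensor of DNA in the cytosol, was at 6.48 and 5.74 FPKM in knockout samples, against 4.23 and 3.52 FPKM in wild-type samples. Txnip, a thioredoxin-binding protein that can engage NLRP3, was at 454 and 707 FPKM in knockout samples, against 361 and 317 FPKM in wild-type samples. Limma adjusted p was 0.162, 0.198 and 0.241 for these. Nlrp3 itself was at 2.32 and 2.16 FPKM in knockout tumours and at 2.52 and 1.69 FPKM in wild-type samples, and Casp1 at 4.79 and 5.30 FPKM in knockout tumours and at 4.63 and 4.38 FPKM in wild-type samples. Of the 17 tested genes, 5 lay higher and 7 lower in both knockout libraries, where 22.7% and 25.4% of all tested genes did, and their median log2 fold change was 0.00.

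Genes of the signal from receptor to NF-kB gave no call either. All 25 were tested, and 0 were called by limma or limma-voom. At an unadjusted p under 0.05, 0 were higher and 1, the ubiquitin ligase gene Peli1, was lower. The shares of all tested genes were 8.36% and 7.01%. Peli1 was at 20.2 and 17.3 FPKM in knockout samples, against 23.6 and 24.1 FPKM in wild-type samples (-0.33 ± 0.12, SE; limma adjusted p = 0.275). Tab3, an adaptor of the kinase TAK1, was at 8.23 and 10.7 FPKM in knockout samples, against 12.5 and 11.3 FPKM in wild-type samples. Irak3, a kinase-like inhibitor of the pathway, was at 2.61 and 2.02 FPKM in knockout samples, against 1.89 and 1.84 FPKM in wild-type samples. The adaptor gene Myd88 was at 29.5 and 29.1 FPKM in knockout samples, against 26.2 and 26.5 FPKM in wild-type samples. The median log2 fold change of the list was -0.04.

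**Figure D5:**
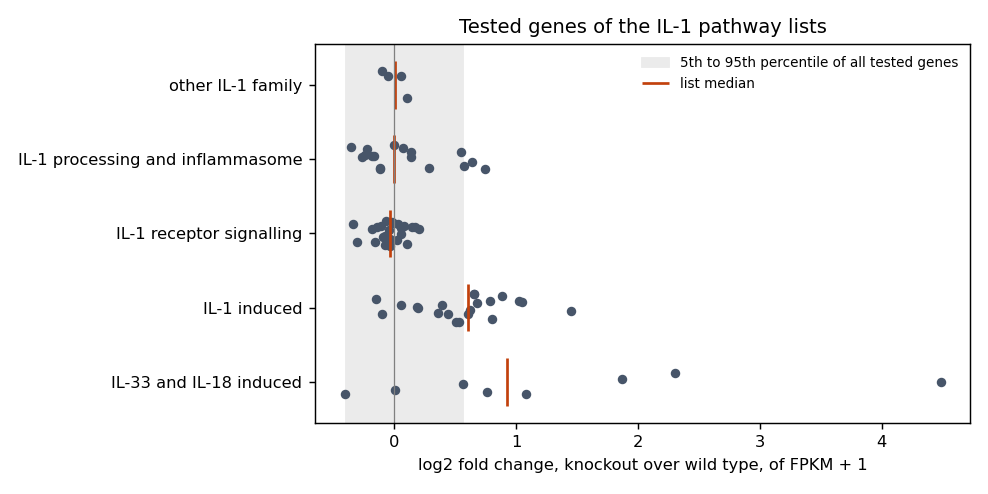
log2 fold change, knockout over wild type, of FPKM + 1 for the tested genes of 5 lists, 1 point per gene with the list median as a line and the 5th to 95th percentile of all tested genes as a grey band. Medians are 0.60 for IL-1 induced genes and 0.92 for IL-33 and IL-18 induced genes, and -0.04 for receptor signalling genes.

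The genes with the profile most like that of Il1b over the 4 libraries were Trbc2, Mapt, Ifi27l2a, Col6a1 and Saa3. They were the nearest of 9657 genes with a mean of at least 5 FPKM, by the root mean square distance of centred log2(FPKM + 1), which ran from 0.068 for Trbc2 to 0.113 for Saa3. Col6a1, a collagen, and Ifi27l2a, an interferon-induced gene, were themselves called as higher in knockout tumours (limma adjusted p = 0.0255 and 0.0455). Of all tested genes 0.0761% were called higher. These genes were chosen for likeness to Il1b, a called gene, so the choice favours such calls and they are no separate result. Trbc2, a T cell receptor constant segment, was at 8.115 and 7.499 FPKM in knockout samples, against 2.75 and 3.26 FPKM in wild-type samples. Nearest to Il33 were Car2, Rgs4, C4b, Bcap29 and C3, at distances of 0.086 to 0.127. C3, a complement component, was at 280 and 685 FPKM in knockout samples, against 262 and 208 FPKM in wild-type samples. With 4 libraries many genes can share a profile, and likeness is a description of these libraries.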

How the data were processed

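The authors deposited 1 value per gene and library, read here as FPKM because the step of 1 read scales with library and gene length. The submitters' processing notes name TopHat2, DESeq2 and the build mm10 but no role for them. Not given in the sources used here are counter, gene lengths, filters and strandedness, so reads shared between similar or overlapping genes may have been split or dropped. Of 35275 identifiers, 34490 matched a symbol. Whole reads were recovered for 21600 of 21601 genes above 0, at the smallest length that made all 4 values whole within 0.0002 reads plus 2e-08 per read unless an annotated length fitted (5488 genes). For genes without an annotated length the true reads may be a whole multiple, given as "at least". Read intervals are not given, since reads carry no molecular identifiers.

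From the deposited values, log2(FPKM + 1) was fitted by genotype in limma 3.58.1 (R 4.3.3) with a trend of variance on level, for 13147 genes with at least 1 FPKM in 2 or more libraries, with Benjamini-Hochberg adjustment and calls at an adjusted p under 0.05. This scale understates changes of low genes. With 4 libraries 2 residual degrees of freedom remained, and the prior added 4.12. Members, lists and rules were chosen with earlier results of these data known. Named genes are all 10 members, each list's called genes or otherwise the 3 largest changes without overlap, and the 5 most alike to Il1b and Il33. Cell marker lists are mostly given as sums, and further genes of the lists (Il13, Ccl24, Areg, Il4, Nlrp3, Casp1, Myd88, Icam1, Il1f9, the other family genes and single cell markers) were named after their values were seen. The 7 motifs were chosen from textbook knowledge. Alternatives were other scaling, filters, pseudocounts, variance priors and thresholds, a replicate block, leaving out each library, and limma-voom on recovered reads.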

Additional observations from a re-analysis of the deposited data

How the results depend on the processing

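The 15 genes called (10 higher, 5 lower) became 1 (0 higher, 1 lower) with no filter on low values, 8 (4 higher) with limma-voom on recovered reads, and 65 (46 higher, 19 lower) at an adjusted p under 0.1. With quantile normalization, limma without the trend and a pseudocount of 10, 6 were higher, and with the filter at an FPKM of 5, 8 were lower. Leaving out each library gave 10 to 221 calls, 5 to 171 higher and 5 to 50 lower, with 221 without knockout 1 and 49 without knockout 2. The replicate number as a block gave 69 calls (54 higher, 15 lower). Deviations of same-numbered libraries correlated at -0.306, and no label pairs them. Crossed pairing, added after seeing the data, gave 848 calls (520 higher, 328 lower). The block changed no call of a member.

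No member (0) was called with no filter, quantile normalization, a pseudocount of 10, limma-voom or a fit lacking the trend, and 0 to 3 with 1 library left out (3 without knockout 1). With 1 library left out, Il18 ranged from -0.41 to 0.52, Il1r1 from -0.14 to 0.044 and Il1rap from -0.21 to 0.10, and these changed sign without knockout 1, Il1rap (0.038) also without wild type 1. The median of IL-1 induced genes was 0.51 with quantile normalization, 0.42 with no filter, 0.22 with a pseudocount of 10 and 0.42 to 0.59 with 1 library left out. Its calls were 1 with the filter at an FPKM of 5, 2 with the block, 2 at an adjusted p under 0.1 and 0 to 4 with 1 library left out. IL-33 and IL-18 induced genes had a median of 0.35 with no filter, 1.47 with the filter at 5 and 0.60 to 1.25 with 1 library left out, with 2 calls with the block, 1 at an adjusted p under 0.1 and 0 to 4 with 1 library left out. Processing genes had a median of -0.064 with quantile normalization, 0.060 with no filter, -0.11 with the filter at 5 and -0.12 to 0.058 with 1 library left out. With 1 library left out, signalling genes ranged from -0.046 to 0.001 and the other family genes from -0.051 to 0.19. The Il1r2 to Il1r1 log2 difference was 1.29 on the log2(FPKM + 1) scale and 2.04 to 2.41 with 1 library left out. The ratio of Il1rn to Il1b stayed between -0.68 and -0.54, that to Il1a plus Il1b between -0.61 and -0.45, and that of Il18bp to Il18 ran from -0.39 to 0.87. The causes were not tested. Il1a, Il1r2 and Il1rl1 were the members with the lowest FPKM, and limits of depth on them were not tested. A library left with no partner of its genotype is assumed to vary like the other.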
